A study of Saccharomyces cerevisiae with 54 samples.

Results

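The genes described here encode the proteins of the large subunit of the cytoplasmic ribosome in budding yeast, Saccharomyces cerevisiae. They were chosen by name, as every row of the count table whose S288C standard name begins with RPL and a number, which gave 76 of 6571 genes. The 76 genes encode 43 numbered proteins, 33 of them from a pair of gene copies called A and B and 10 from a single gene. No measured value entered this rule, though it was set with earlier results of these data known. Their levels were followed in MMTT and SS, a pair of diploid strains of the S288c background. MMTT, the allele replacement strain, is labelled MKT1(89G)/TAO3(4477C), and SS, the wild type, is labelled MKT1(89A)/TAO3(4477G). MMTT is homozygous for both replaced alleles and was made by mating haploids that carried both of them. Cells of both strains went through glucose medium (YPD) and acetate medium (YPA) and were then moved to potassium acetate with amino acid supplements, in which diploid yeast starves for nitrogen and can enter meiosis and form spores. RNA was extracted at 9 time points with 3 replicates of each strain at each, and libraries were made from mRNA isolated from it. The first was 0 h, the next 30 min and then 45 min, followed by 1 h 10 min, then 1 h 40 min, then 2 h 30 min, then 3 h 50 min, then 5 h 40 min, and at last 8 h 30 min. Of the 54 libraries, 49 were used, 24 of MMTT and 25 of SS, which left 2 libraries in 5 of the 18 groups. The labels do not say whether the replicates were separate cultures or clones, so the p-values measure the spread between these libraries, which may be technical.

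Total counts per library lay between 1455002 and 5793502, with a median of 3641591. The 76 genes together took between 22294 and 128726 counts, or 0.730% to 2.79% of a library. The lowest single count of any of them was 8, none was at 0 in any library, and all 76 passed the filters on low counts. Levels are given as CPM, the count brought to a common library size with TMM factors, and levels of different genes are compared only as CPM per kilobase of coding length. Because whole cultures were profiled and every value is relative to the rest of the RNA, fewer cells that express a gene and less RNA per cell cannot be told apart.

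A ribosome needs 1 copy of nearly every one of these proteins, and in growing yeast their genes are transcribed together by the activator Rap1 with Fhl1, Ifh1 and Sfp1, under the control of the nutrient-sensing kinases TORC1 and PKA. Nitrogen starvation is known to switch this transcription off. Many of the genes carry an intron, which is rare in yeast, and most exist as a pair of copies left by an ancient duplication of the genome, so that both copies make the same or nearly the same protein.

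Relative to 0 h, the large subunit genes rose in both strains within the first 30 min in sporulation medium, further in SS than in MMTT. In MMTT the median log2 fold change of the 76 genes stayed between 0.48 and 0.82 at the 8 later time points. The highest was that at 2 h 30 min (1.76-fold). Single libraries moved this median. It was 0.21 at 1 h 40 min and 0.59 at 2 h 30 min without MMTT replicate 1 of the same time. At 45 min it was 0.32 without MMTT replicate 1 and 0.89 without replicate 3. In SS the median was 1.52 at 30 min, 1.83 at 45 min (3.56-fold) and 1.63 at 1 h 10 min. It was then 0.77, 0.75, 0.95 and 1.09 from 1 h 40 min to 5 h 40 min, and 1.75 at 8 h 30 min (3.37-fold). The value at 3 h 50 min was 0.72 without SS replicate 1 of that time. The median over all genes tested stayed between -0.06 and 0.07 in every comparison with 0 h or between strains. MMTT stayed near a moderate level, while SS passed through a high level, a lower one and again a high one.

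The share of all counts that went to these genes gives the same picture without a fold change. At 0 h it was 0.852% ± 0.167 in MMTT (SD, n = 3) and 0.805% and 0.872% in the 2 SS libraries. At 45 min it was 1.06% and 1.59% in the 2 MMTT libraries and 2.53% ± 0.365 in SS (SD, n = 3). At 2 h 30 min it was 1.23% and 1.68% in the 2 MMTT libraries and 1.21% ± 0.0990 in SS (SD, n = 3), and the strains overlapped. At 8 h 30 min it was 1.12% ± 0.201 in MMTT and 2.53% ± 0.0946 in SS (SD, n = 3 each), and the strains did not overlap.

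**Figure D1:**
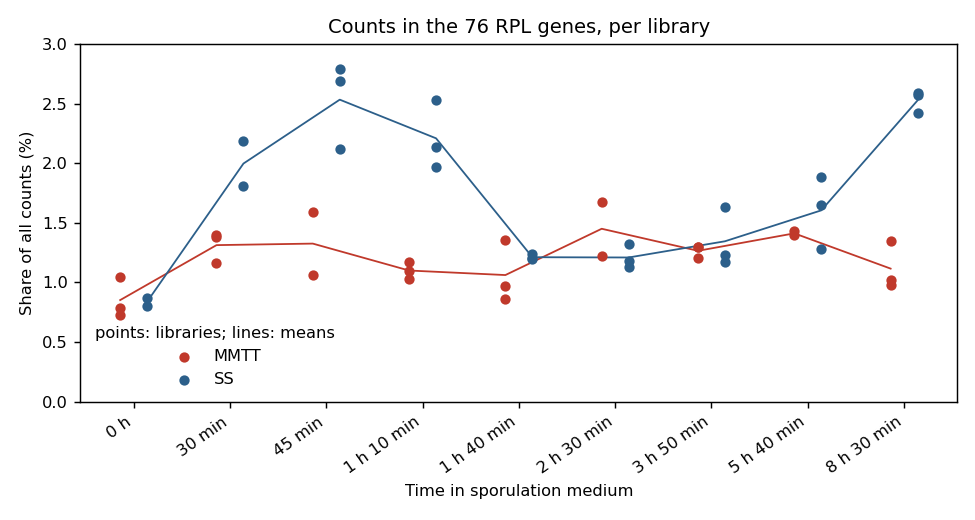
Percent of all counts in each of 49 libraries that fell on the 76 large subunit genes (vertical axis) at the 9 time points (horizontal axis, evenly spaced), for MMTT and SS. At 45 min and 8 h 30 min the MMTT libraries lie between 0.979% and 1.59%, and those of SS between 2.12% and 2.79%.

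Counted gene by gene with edgeR's quasi-likelihood test at a Benjamini-Hochberg adjusted p under 0.05, 46 of the 76 genes rose and 1 fell in MMTT at 30 min, when 18.6% of all 6419 genes tested rose. At the other later times 40 (16.2% of all genes), 36 (16%), 30 (15.4%), 49 (19.5%), 40 (18.1%), 47 (17.1%) and 34 (23.5%) of them rose in MMTT, in the order of the time points. In SS 68 rose and 1 fell at 30 min, when 12.3% of all 6350 genes tested rose, and 71 (16.8%), 71 (18%), 45 (15.2%), 52 (17.9%), 57 (20.3%), 64 (20.6%) and 71 (22.2%) rose at the later times. At each time the share of the large subunit genes that rose was above the share of all genes in both strains. The few falls were not compared with a share of all genes that fell. In MMTT 25 of the 76 exceeded 0 h at each of 8 later times (6.25% of all genes tested did) and 56 at 1 or more (38.5%). In SS 43 did so at each of 8 (7.45%) and 72 at 1 or more (32.3%). RPL15B and RPL41B passed the test at no time in either strain. Some counts rest on single libraries. Without MMTT replicate 1 of 45 min 16 genes rose there, without MMTT replicate 2 of 0 h 26 did, without MMTT replicate 1 of 2 h 30 min 28 rose at that time, and without MMTT replicate 2 of 5 h 40 min 31 rose at that time. Without SS replicate 2 of 0 h 29 genes rose in SS at 1 h 40 min and 32 at 2 h 30 min.

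At the same time points MMTT held less of this RNA than SS in the first hour or so and again at the end, and differed little in between. At 0 h 3 of the 76 genes were lower in MMTT and 2 higher, with a median log2 fold change of MMTT over SS of 0.09 (7.63% of 6031 genes were lower and 7.16% higher). At 30 min 47 genes were lower with a median of -0.71 (0.611-fold, background 21.8%), at 45 min 60 with -1.13 (0.457-fold, 12%), and at 1 h 10 min 61 with -1.02 (0.494-fold, 18%). At 1 h 40 min 10 were lower (median -0.19, background 9.85%), at 2 h 30 min 1 was lower and 4 higher (median 0.01, background 15.8% lower and 15.7% higher), at 3 h 50 min 8 were lower and 1 higher (median -0.20, 10.7% lower and 9.27% higher) and at 5 h 40 min 10 were lower and 2 higher (median -0.23, 11.9% lower and 11.6% higher). The gene that was higher at 3 h 50 min was RPL39 (adjusted p = 0.0296, and 0.229 without MMTT replicate 1 of that time). Those at 5 h 40 min were RPL39 (adjusted p = 0.0345, and 0.2 without MMTT replicate 1) and RPL41B (adjusted p = 0.0395, and 0.332 without MMTT replicate 2). At 8 h 30 min 70 of the 76 genes were lower in MMTT, with a median of -1.17 (0.444-fold, background 21.9%). The 6 that did not pass there were RPL15B, RPL18B, RPL29, RPL39, RPL41B and RPL42A. All 76 estimates were negative at both 1 h 10 min and 8 h 30 min, and 46 genes passed as lower in MMTT at all of 30 min, 45 min, then 1 h 10 min and also 8 h 30 min, as did 5.14% of all genes tested. The highest MMTT library lay below the lowest SS library for 61 of the 76 genes at 30 min (36.2% of all genes tested), for 61 at 45 min (19.8%), for 67 at 1 h 10 min (30.7%) and for 74 at 8 h 30 min (32%). At 2 h 30 min it did so for 7, with a background of 31.4%.

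No large subunit gene was higher in MMTT at 30 min, 45 min or 1 h 10 min, nor at 8 h 30 min, by edgeR or by DESeq2, and 0 were at an unadjusted p under 0.05. Some of these counts rest on single libraries. Without SS replicate 2 of 30 min 26 genes were lower at 30 min. At each of 1 h 40 min, 3 h 50 min and 5 h 40 min, leaving out any of 4 libraries moved the count by more than 1.5 times. The counts ran from 2 (without MMTT replicate 3) to 15 (without MMTT replicate 1) at 1 h 40 min, from 1 (without SS replicate 1) to 11 at 3 h 50 min, and from 2 (without MMTT replicate 2) to 18 (without SS replicate 2) at 5 h 40 min. The median at 2 h 30 min changed sign with the MMTT library left out, from -0.19 without replicate 1 to 0.28 without replicate 2.

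**Figure D2:**
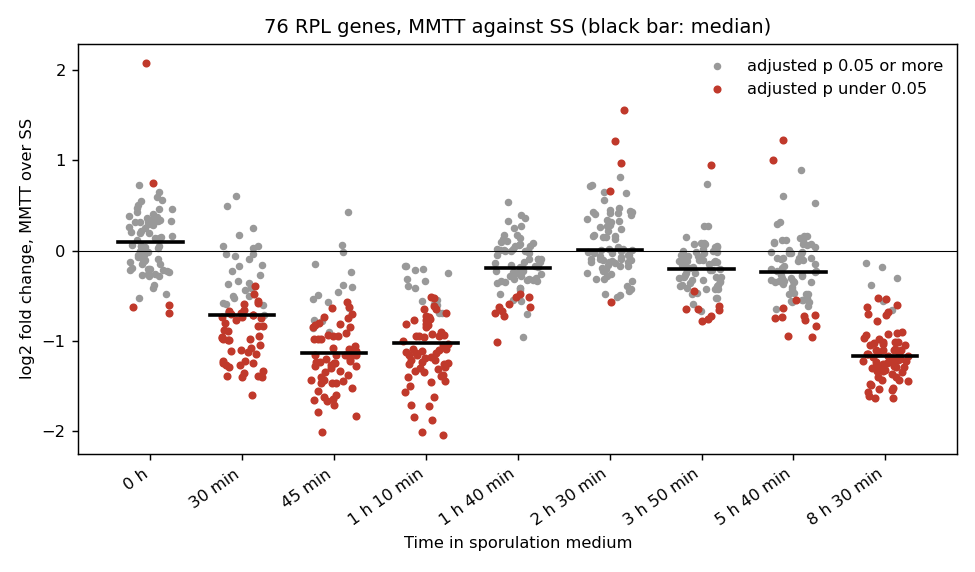
Log2 fold change of MMTT over SS (vertical axis) for each of the 76 large subunit genes at the 9 time points (horizontal axis, evenly spaced). Each point is a gene, red where its adjusted p is under 0.05, and the bar is the median. The medians lie at -0.71, -1.13 and -1.02 from 30 min to 1 h 10 min, near 0 at 2 h 30 min and at -1.17 at 8 h 30 min.

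The direct test of whether the change from 0 h differed between the strains gave the same time points. The change was lower in MMTT than in SS for 24 genes at 30 min (background 4.76% of 6031 genes), for 40 at 45 min (4.33%), for 39 at 1 h 10 min (5.59%) and for 57 at 8 h 30 min (10.6%), and for 2, 1, 1 and 3 genes at the 4 times between (2.12%, 2.34%, 1.36% and 3.32%). Higher changes in MMTT numbered 0 at every time by edgeR and by DESeq2, and 0 at an unadjusted p under 0.05. These contrasts share the 0 h libraries, of which SS has 2, and without SS replicate 2 of 0 h the counts were 11 at 30 min and 22 at 45 min. The count at 30 min was 15 without MMTT replicate 2 of that time and 10 without SS replicate 2. The interaction of strain and time over all 8 coefficients passed at an adjusted p under 0.001 for 42 of the 76 genes, when 14.8% of all genes tested passed. Middle meiotic genes, a sign of progress through sporulation, also differed between the strains. The mean log2 CPM of 7 middle meiotic genes (NDT80, SPS4, GIP1, SPR3, SSP1, SPO20 and SPS1) lay between 9.56 and 10.37 in the MMTT libraries of 8 h 30 min and between 3.56 and 4.66 in all SS libraries of every time. At 2 h 30 min, when the large subunit genes differed least, it was 5.74 to 8.31 in MMTT and 4.14 to 4.33 in SS. From 30 min to 1 h 10 min it lay between 4.60 and 5.11 in MMTT and between 3.85 and 4.30 in SS. At 0 h the strains already stood apart, with 4.07 to 4.43 in MMTT and 3.56 to 3.88 in SS. The part of this progress in the result was not tested.

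Rpl5 and Rpl11 bind the small 5S ribosomal RNA and enter the nucleus and the assembling subunit together with it, and Rpl5 is encoded by a single gene. RPL5 had 101, 85.8 and 145.3 CPM in MMTT at 1 h 10 min, against 231, 282.7 and 327.8 CPM in MMTT at 0 h, and fell by 1.36 ± 0.23 (SE) on the log2 scale (adjusted p = 0.00016). In SS it had 396.2, 417.1 and 526.8 CPM at 1 h 10 min and 462.8, 563.4 and 530.7 CPM at 45 min, against 208.7 and 309.2 CPM at 0 h. At 1 h 10 min every library lay below those of 0 h in MMTT, and above them in SS. The change in SS at 45 min was 0.98 ± 0.20 (adjusted p = 0.00045). Between the strains at 1 h 10 min the log2 fold change was -2.01 ± 0.21 (adjusted p = 8.8e-09), and the changes from 0 h differed by -2.13 ± 0.32 (adjusted p = 2.7e-05). RPL5 also fell in MMTT at 45 min (-1.14 ± 0.26, adjusted p = 0.003) and 1 h 40 min (-1.15 ± 0.23, adjusted p = 0.00074), and at 8 h 30 min it had 204.9, 237.7 and 166 CPM in MMTT against 524, 525.6 and 431.2 CPM in SS (-1.28 ± 0.21, adjusted p = 4.4e-06).

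Of the genes of its partner, RPL11A had 86.28, 93.06 and 91.57 CPM in MMTT at 8 h 30 min, against 95.55, 91.72 and 130.7 CPM in MMTT at 0 h, and passed the test against 0 h at no time in this strain. RPL11B had 130.4, 127.2 and 147.5 CPM in MMTT at 30 min, against 46.43, 40.92 and 62.04 CPM at 0 h, a rise of 1.45 ± 0.19 (adjusted p = 8.3e-06) that held at all 8 later times. In SS both copies rose. RPL11A had 199.8, 183.5 and 165.1 CPM in SS at 8 h 30 min against 61.62 and 64.39 CPM at 0 h (1.54 ± 0.20, adjusted p = 2.5e-06), and RPL11B had 284.5, 232.7 and 239.3 CPM against 78.4 and 65.05 CPM (1.82 ± 0.18, adjusted p = 5.3e-08). At 8 h 30 min the log2 fold change of MMTT over SS was -1.02 ± 0.17 for RPL11A (adjusted p = 1.1e-05) and -1.28 ± 0.16 for RPL11B (adjusted p = 5.8e-08), and both were lower in MMTT.

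Rpl3 is among the first proteins to join the assembling subunit and lies near the centre that forms peptide bonds. RPL3 had 272, 241 and 393.6 CPM in MMTT at 1 h 10 min against 483.1, 459.3 and 608.7 CPM at 0 h, a fall of 0.79 ± 0.21 on the log2 scale (log2 fold change -0.79, adjusted p = 0.0058). In SS it had 1407, 1418 and 1151 CPM at 8 h 30 min against 682.1 and 892.7 CPM at 0 h (0.76 ± 0.17, adjusted p = 0.0013), and was lower than at 0 h at 1 h 40 min with 516.5, 427.2 and 500.2 CPM (-0.70 ± 0.17, adjusted p = 0.0027, and 0.099 without SS replicate 3 of 0 h). The strains stood furthest apart at 1 h 10 min, with 933.3, 1080 and 1241 CPM in SS and a log2 fold change of MMTT over SS of -1.84 ± 0.19 (adjusted p = 4.2e-09). RPL3 was already lower in MMTT at 0 h (-0.61 ± 0.20, adjusted p = 0.037, and 0.385 without SS replicate 3 of 0 h).

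Rpl4 lines the tunnel through which new protein leaves the ribosome. RPL4A had 344.6, 406.5 and 304.9 CPM in MMTT at 8 h 30 min and 261.8, 245.1 and 312.4 CPM at 1 h 10 min, against 556.9, 471.2 and 679.2 CPM at 0 h, with log2 fold changes of -0.69 ± 0.18 (adjusted p = 0.0039) and -1.08 ± 0.18 (adjusted p = 0.00015). In SS it had 504.5, 430.3 and 475.7 CPM at 1 h 40 min against 907.2 and 930.6 CPM at 0 h (-0.96 ± 0.18, adjusted p = 0.00028). RPL4A was thus below its 0 h level in both strains at 1 h 40 min, and rose at no time in either. At 8 h 30 min its log2 fold change of MMTT over SS was -1.02 ± 0.17 (adjusted p = 8.1e-06), and at 0 h it was -0.69 ± 0.19 (adjusted p = 0.011, and 0.094 without SS replicate 3 of 0 h).

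The falls against 0 h that passed the test, 23 when each gene is counted at each time, were all of genes without an intron. In MMTT they were of 6 genes, RPL3, RPL4A, RPL5, RPL9A, RPL15A and RPL41A, and in SS of 3, RPL3, RPL4A and RPL4B. The deepest of these falls was that of RPL41A at 1 h 40 min in MMTT, with a log2 fold change of -1.43 ± 0.42 (adjusted p = 0.014, and 0.071 without MMTT replicate 3 of 1 h 40 min). Of the 76 genes, 52 have an intron and 24 do not. The median log2 fold change was 0.80 for the genes with an intron and 0.19 for those without in MMTT at 30 min, with 39 of 52 and 7 of 24 rising. In SS at 45 min it was 1.99 and 1.44, with 52 of 52 and 19 of 24 rising, and in SS at 8 h 30 min 1.89 and 1.38. Between the strains at 8 h 30 min the medians were -1.17 for both kinds, with 49 of 52 and 21 of 24 genes lower in MMTT. Shares of all genes tested that rose, or were lower in MMTT, at these times are given above. For falls against 0 h no such share was compared. Spliced and unspliced RNA were not separated here.

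Rpl10 is added to the subunit in the cytoplasm as one of the last steps before the ribosome can translate. RPL10 had 498.3, 653.8 and 451.4 CPM in MMTT at 8 h 30 min against 607.8, 504.7 and 768.4 CPM at 0 h, and passed at no time in this strain (-0.23 ± 0.18 at 8 h 30 min, adjusted p = 0.33). In SS it had 1179, 1205 and 1055 CPM at 8 h 30 min against 427.4 and 533.1 CPM at 0 h (1.26 ± 0.20, adjusted p = 2.5e-05). The strains overlapped in no library at 8 h 30 min, the log2 fold change of MMTT over SS was -1.10 ± 0.17 (adjusted p = 2.9e-06), and the changes from 0 h differed by -1.49 ± 0.26 (adjusted p = 5.4e-05).

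Rpl30 binds its own transcript and blocks its splicing when it is in excess. RPL30 had 103.4, 145.7 and 100 CPM in MMTT at 8 h 30 min against 128.9, 109.1 and 133.2 CPM at 0 h, and passed at no time in MMTT. In SS it had 284.5, 306.8 and 266.9 CPM at 8 h 30 min against 96.09 and 106.2 CPM at 0 h (1.51 ± 0.30, adjusted p = 0.00029), and at 45 min the change was 1.33 ± 0.29 (adjusted p = 0.0012). Between the strains RPL30 stood at -1.23 ± 0.27 at 45 min (adjusted p = 0.00086) and -1.30 ± 0.23 at 8 h 30 min (adjusted p = 1.8e-05).

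Rpl25 sits at the exit of the tunnel, where factors that receive new proteins bind, and Rpl28 is the protein in which resistance to cycloheximide arises. RPL25 rose in both strains. It had 242.2, 196.4 and 271.7 CPM in MMTT at 30 min against 136.3, 107.8 and 164.4 CPM at 0 h (0.80 ± 0.21, adjusted p = 0.0062), and 420.8, 505.6 and 593.6 CPM in SS at 45 min against 161.7 and 156.6 CPM at 0 h (1.65 ± 0.23, adjusted p = 5.2e-06). RPL28 passed in MMTT only at 2 h 30 min, with 664.2 and 456.8 CPM against 254.2, 251 and 388.9 CPM at 0 h (0.93 ± 0.32, adjusted p = 0.027, and 0.229 without MMTT replicate 1 of 2 h 30 min). In SS it had 735.6, 945.7 and 1037 CPM at 45 min against 216 and 225.9 CPM at 0 h (2.02 ± 0.22, adjusted p = 3.2e-07). At 8 h 30 min both were lower in MMTT, with 214.2, 269.4 and 176.3 CPM against 535.7, 465.3 and 449.3 CPM in SS for RPL25 (-1.14 ± 0.20, adjusted p = 2.1e-05) and a log2 fold change of -1.05 ± 0.24 for RPL28 (adjusted p = 0.00057).

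RPL40A and RPL40B encode a ribosomal protein made as a fusion with ubiquitin, and so also supply ubiquitin. RPL40B had 123.6, 147.5 and 113.1 CPM in MMTT at 8 h 30 min against 69.95, 58.65 and 80.3 CPM at 0 h (0.88 ± 0.14, adjusted p = 3e-05), and 200.9, 224.4 and 191.6 CPM in SS against 48.5 and 49.36 CPM at 0 h (2.08 ± 0.21, adjusted p = 5.7e-08). Both strains rose, and at 8 h 30 min MMTT was lower by a log2 fold change of -0.68 ± 0.15 (adjusted p = 0.00037). For RPL40A the log2 fold change at 8 h 30 min was -0.60 ± 0.20 (adjusted p = 0.016, and 0.142 without MMTT replicate 3 of 8 h 30 min). Both values were nearer to 0 than the median of -1.17 over the 76 genes.

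By p-value of the interaction of strain and time the leading 5 members were RPL9B, RPL16B, RPL17B, RPL22A and RPL5. Rpl17, like Rpl25, lies at the exit of the tunnel. RPL9B had 126.3 and 154.8 CPM in MMTT at 45 min against 329.3, 371.7 and 329.7 CPM in SS (log2 fold change -1.28 ± 0.17, adjusted p = 8.8e-07), and at 8 h 30 min 141.8, 150.5 and 137.1 CPM against 301.4, 335.2 and 285.8 CPM (-1.10 ± 0.15, adjusted p = 1.4e-07). At 0 h the strains overlapped, with 89, 84.9 and 121.6 CPM in MMTT and 82.67 and 95.77 CPM in SS, and at 2 h 30 min with 157.1 and 159.1 CPM in MMTT and 158.7, 172.4 and 136.8 CPM in SS. RPL9B rose against 0 h at all 8 times in both strains, by 0.50 to 0.86 in MMTT and by 0.73 to 1.93 in SS. The rise in MMTT at 45 min had an adjusted p of 0.128 without MMTT replicate 3 of 45 min.

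RPL16B had 62.21 and 77.51 CPM in MMTT at 45 min against 211.6, 277.6 and 264.2 CPM in SS (-1.83 ± 0.24, adjusted p = 8.2e-07), and 65.59, 95.03 and 71.49 CPM at 8 h 30 min against 264.5, 224.1 and 199 CPM in SS (-1.57 ± 0.20, adjusted p = 8.6e-08). It passed the test against 0 h at no time in MMTT, where 0 h held 60.42, 73.31 and 87.86 CPM. RPL17B had 58.71, 54.63 and 75.35 CPM in MMTT at 1 h 10 min against 171.4, 163.5 and 223.4 CPM in SS (-1.56 ± 0.20, adjusted p = 1.8e-07), and 76.21, 90.66 and 74.06 CPM at 8 h 30 min against 168.9, 190.9 and 158.4 CPM in SS (-1.10 ± 0.19, adjusted p = 1.6e-05). RPL17B passed against 0 h in MMTT only at 5 h 40 min (0.57 ± 0.21, adjusted p = 0.038, and 0.231 without MMTT replicate 1 of 5 h 40 min).

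The A copy of RPL7 had 117, 77.6 and 134.7 CPM in MMTT at 30 min against 354.3 and 312.2 CPM in SS, the lowest log2 fold change of MMTT over SS of the 76 genes at this time (-1.60 ± 0.21, adjusted p = 4.1e-07). The lowest at 8 h 30 min were those of RPL7B, with 45.72, 41.72 and 33.72 CPM in MMTT against 128.1, 144.6 and 102.6 CPM in SS (-1.63 ± 0.22, adjusted p = 1e-07), and of RPL22A. The RPL7 introns hold the small nucleolar RNA genes SNR39 and SNR59, and whether their RNA entered these counts was not tested.

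Rpl22 is a nonessential protein that in excess holds back the splicing of the RPL22B transcript, and RPL22B showed the widest changes of the 76 genes in SS. RPL22A had 63.69, 71.65 and 44.59 CPM in MMTT at 8 h 30 min against 209.2, 174.4 and 173.8 CPM in SS (-1.63 ± 0.23, adjusted p = 3.1e-07). At 1 h 10 min it had 40.04, 34.88 and 43.99 CPM in MMTT against 143, 160.7 and 186.7 CPM in SS (-2.04 ± 0.23, adjusted p = 3.7e-08). At 0 h the strains overlapped, with 32.74, 34.1 and 48.18 CPM in MMTT and 29.59 and 50.01 CPM in SS.

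At 0 h RPL22B was higher in MMTT. It had 10.12, 7.16 and 17.0 CPM in MMTT (34, 21 and 54 counts) against 2.75 and 2.62 CPM in SS (9 and 8 counts), a log2 fold change of 2.08 ± 0.36 (adjusted p = 0.00017). At 8 h 30 min it had 22.59, 30.15 and 23.95 CPM in MMTT against 57.23, 63.07 and 74.25 CPM in SS (-1.34 ± 0.23, adjusted p = 7.6e-06). RPL22B therefore changed sides between the strains, and its change from 0 h at 8 h 30 min was 1.16 ± 0.25 in MMTT (adjusted p = 0.00076) and 4.59 ± 0.36 in SS (adjusted p = 2.3e-09), a difference of -3.42 ± 0.43 (adjusted p = 1.5e-07). The size of the SS change rests on the 9 and 8 counts of 0 h. With all 54 libraries the log2 fold change of MMTT over SS at 0 h was 2.14 (adjusted p = 5.7e-05).

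**Figure D3:**
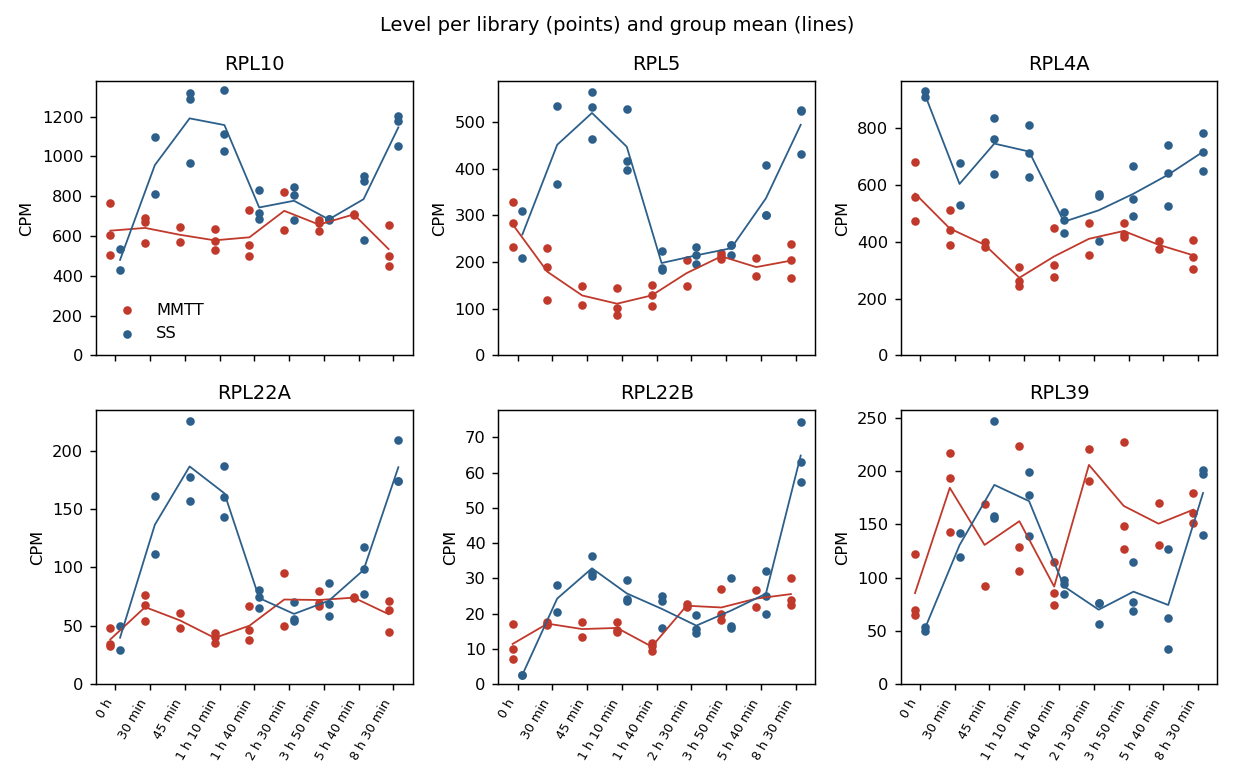
Level in CPM of RPL10, RPL5, RPL4A, RPL22A, RPL22B and RPL39 (vertical axes) at the 9 time points (horizontal axis, evenly spaced), with each library as a point and the group mean as a line, for MMTT and SS. RPL5 and RPL22A in MMTT stand below SS from 30 min to 1 h 10 min and at 8 h 30 min, RPL4A in MMTT starts below SS at 0 h, and RPL39 in MMTT stands above SS at 2 h 30 min.

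At 2 h 30 min RPL39, RPL29, RPL42A and RPL33B were higher in MMTT. Rpl39 is one of the smallest ribosomal proteins and lies in the exit tunnel. RPL39 had 190.3 and 220.9 CPM in MMTT at 2 h 30 min against 76.33, 76.56 and 56.73 CPM in SS (1.56 ± 0.35, adjusted p = 0.00095), and at 8 h 30 min 179.4, 151.4 and 160.1 CPM against 139.7, 197.4 and 200.8 CPM in SS, where the strains overlapped (-0.13 ± 0.31, adjusted p = 0.77). RPL29, another short gene, had 182.1 and 171.7 CPM in MMTT at 2 h 30 min against 71.89, 75.37 and 81.29 CPM in SS (1.22 ± 0.35, adjusted p = 0.0081, and 0.054 without MMTT replicate 2 of 2 h 30 min). For RPL42A the log2 fold change was 0.97 ± 0.30 (adjusted p = 0.0122, and 0.196 without MMTT replicate 1 of that time), and for RPL33B 0.66 ± 0.22 (adjusted p = 0.0232, and 0.177 without MMTT replicate 2). The 5 members with under 250 bases of coding sequence had median log2 fold changes of MMTT over SS of 0.65 at 2 h 30 min and 0.89 at 5 h 40 min. Their median was -0.66 at 8 h 30 min, and that of the 71 longer ones -1.19. The 133 other genes of this size in the table had medians of 0.80 at 2 h 30 min and 0.64 at 5 h 40 min, against -0.08 and -0.09 for 5495 longer ones. The medians of the short members and of the other short genes were both above 0 at 0 h and 30 min as well. They differed in sign at the remaining times, among them 45 min (-0.15 and 0.54), 1 h 10 min (-0.59 and 0.61) and 8 h 30 min (-0.66 and 0.14). Whether recovery of short RNAs differed between the libraries was not tested. Over the 76 members the Spearman correlation of coding length with the log2 fold change of MMTT over SS was -0.49 at 2 h 30 min and -0.67 at 5 h 40 min. From 30 min to 1 h 10 min the correlation lay between -0.51 and -0.38. It was weaker at 8 h 30 min (-0.17), and between -0.14 and -0.03 at the remaining times. All genes come from the same libraries, and no test was made.

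RPL42A and RPL33B rose in both strains at all 8 later times. RPL42A had 244, 174.4 and 206.4 CPM in MMTT at 30 min against 53.28, 47.06 and 75.58 CPM at 0 h (1.83 ± 0.27, adjusted p = 2.9e-05), and 223.1 and 185.1 CPM in SS against 63.45 and 42.17 CPM at 0 h (1.93 ± 0.35, adjusted p = 0.0003). Between the strains at 30 min the log2 fold change was 0.03 ± 0.30 for RPL42A (adjusted p = 0.95) and 0.05 ± 0.22 for RPL33B (adjusted p = 0.88), and these errors leave room for a difference. RPL15B passed against 0 h at no time. It had 46, 45.22 and 58.04 CPM in MMTT at 8 h 30 min against 55.36, 42.28 and 39.05 CPM at 0 h, and 59.18, 48.86 and 62 CPM in SS against 54.6 and 55.57 CPM at 0 h (0.05 ± 0.15, adjusted p = 0.83), against a median change of 1.75 over the 76 genes in SS. It was lower in MMTT at 1 h 10 min (-0.64 ± 0.15, adjusted p = 0.00076) and 1 h 40 min (-0.66 ± 0.14, adjusted p = 0.00094).

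The regulators bind upstream of the genes, so the 600 bases before each start codon were searched on both strands for the Rap1-type letters ACCCATACA, ACCCGTACA, ATCCATACA and ATCCGTACA, and for the Abf1 motif. These letters were found in 37 of the 76 members (48.7%), 7 of them with 2 or more matches, and in 155 of 5816 genes other than the members (2.67%). They were found in 26 of 56 small subunit genes (46.4%), which were not kept apart from these other genes. Abf1, which stands in for Rap1 at a few of these genes, had a match in 6 members (7.89%) and in 19.8% of the other genes. A match is a description of the letters and not a bound site. Stretches of 70 bases are shown for 4 genes with a Rap1-type match whose courses differed between the strains and for the Abf1 matches of RPL3 and RPL4A, which fell against 0 h, with the matched letters in capitals, 5′ to 3′ on the strand of the gene, from the R64 assembly:

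RPL22A, chrXII:262937-263006, plus strand, 257 to 188 bases upstream: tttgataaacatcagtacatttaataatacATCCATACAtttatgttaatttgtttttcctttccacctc
RPL22B, chrVI:65138-65207, minus strand, 275 to 206 bases upstream: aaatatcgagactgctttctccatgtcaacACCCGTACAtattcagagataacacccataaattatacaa
RPL16B, chrXIV:495366-495435, minus strand, 434 to 365 bases upstream: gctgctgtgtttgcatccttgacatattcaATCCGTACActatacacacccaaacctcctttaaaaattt
RPL17B, chrX:90233-90302, plus strand, 553 to 484 bases upstream: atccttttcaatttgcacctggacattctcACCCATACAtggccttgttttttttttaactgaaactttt
RPL3, Abf1, chrXV:444426-444495, plus strand, 260 to 191 bases upstream: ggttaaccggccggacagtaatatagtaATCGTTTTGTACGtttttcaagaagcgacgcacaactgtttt
RPL4A, Abf1, chrII:299956-300025, plus strand, 210 to 141 bases upstream: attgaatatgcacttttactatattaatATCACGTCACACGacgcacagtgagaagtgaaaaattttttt

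The Rap1-type letters were chosen after the values were seen, and whether genes without them bind Rap1 was not tested. Members with and without a Rap1-type match had similar medians. In MMTT at 30 min they were 0.73 for the 37 with a match and 0.66 for the 39 without, and in SS at 45 min 1.91 and 1.68. For MMTT over SS at 8 h 30 min they were -1.22 and -1.10, with 36 of 37 and 34 of 39 genes lower in MMTT. RPL9B, RPL5 and RPL10 had no match to either motif. Nor had RPL4B, RPL9A and RPL41A, which like RPL5 fell against 0 h at some time. Members with and without an Abf1 match were not compared.

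The copies of a pair can be told apart only where their sequences differ. Over the coding sequence the A and B copies were 78.9% to 99.4% identical, with a median of 93.7%, and 12 of the 33 pairs encode identical proteins. For 50 of the 76 genes every window of 100 bases of coding sequence occurs once in the genome. The share of such windows was lowest in RPL35 (23.1%), RPL1 (38.7%), RPL11 (46.7%), RPL4 (47.2%) and RPL7 (62.3%). How reads that fit both copies were counted is not given in the sources used here, so ratios of these pairs are less certain than those of others. RPL41, whose product is the shortest protein of the ribosome, is shown whole because its copies differ at 1 base, in capitals, and its coding sequence of 78 bases is shorter than a window. RPL1, whose protein forms a mobile stalk of the subunit, is shown for its first 100 of 654 coding bases, which hold 2 of its 4 differences:

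RPL41A, chrIV:130407-130484, minus strand: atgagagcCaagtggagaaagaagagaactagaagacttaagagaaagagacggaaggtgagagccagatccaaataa
RPL41B, chrIV:221724-221801, minus strand: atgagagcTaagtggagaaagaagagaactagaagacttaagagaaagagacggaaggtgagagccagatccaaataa
RPL1A, chrXVI:135790-135889, plus strand: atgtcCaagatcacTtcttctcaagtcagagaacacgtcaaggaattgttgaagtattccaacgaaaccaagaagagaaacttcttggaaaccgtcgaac
RPL1B, chrVII:254641-254740, plus strand: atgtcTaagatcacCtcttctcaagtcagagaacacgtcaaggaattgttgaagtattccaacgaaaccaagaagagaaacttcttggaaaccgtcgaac

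The copies of a pair were often expressed at unequal levels. By the median ratio over the 49 libraries the A copy was higher in 16 pairs and the B copy in 17, 12 pairs differed by more than 2-fold, and 23 kept the same copy higher in all 49 libraries. Per kilobase of coding length, RPL41B stood at a median of 2651 CPM, RPL10 at 1029, RPL28 at 947 and RPL39 at 827, the highest 4 members. The lowest 4 were RPL22B at 54.3, RPL7B at 59.2, RPL15B at 80.0 and RPL13A at 89.2. Within a pair the widest gaps were those of RPL15, with medians of 398.3 CPM per kilobase for A and 80.0 for B (log2 ratio per length 2.37), RPL36 with 189.1 and 693.2 (-2.03), RPL7 with 218.5 and 59.2 (1.99), RPL41 with 738.1 and 2651 (-1.90) and RPL22 with 189.6 and 54.3 (1.86). In all 5 the same copy was higher in all 49 libraries. RPL21, with 258.4 and 262.9 CPM per kilobase, and RPL24 and RPL19, with log2 ratios per length of -0.04 and -0.10, were the most even.

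**Figure D4:**
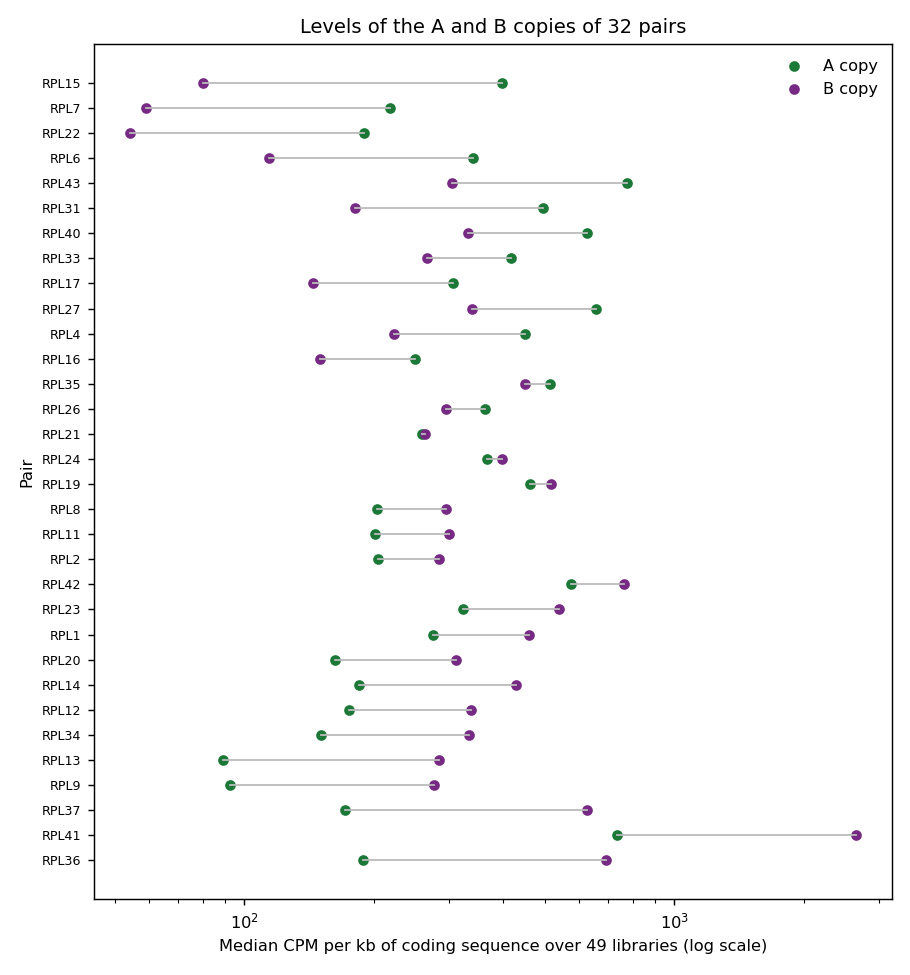
Median level over 49 libraries of the A and the B copy of 32 pairs, in CPM per kilobase of coding length (log axis), ordered by the ratio of the copies. RPL15, RPL7 and RPL22 lie at the end where A is higher, RPL36 and RPL41 at the end where B is higher.

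The log2 ratio of A to B counts in the same library does not depend on depth or scaling, and was compared between strains with limma, adjusted over 61 pairs of A and B copies named in the table. Over the mean of the 9 time points 25 of the 33 pairs (75.8%) differed between MMTT and SS, 13 towards A and 12 towards B in MMTT. Among all 61 pairs 75.4% did, which is near this share. The 61 hold the 33 pairs themselves and 24 pairs of small subunit genes, so they are not a separate background. At single times 83 of 297 tests passed (27.9%, all 61 pairs 24.6%), from 1 pair at 5 h 40 min to 17 at 1 h 10 min. Against their own 0 h 148 of 264 tests passed in MMTT (56.1%, all 61 pairs 55.1%) and 143 of 264 in SS (54.2%, all 61 pairs 50%). The pairs described next are among those with the widest shifts, with RPL11 and RPL15 beside them.

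RPL1 had the widest mean shift, 0.64 ± 0.043 towards the A copy in MMTT (adjusted p = 3.5e-17). Its log2 ratio was -0.36, -0.13 and -0.38 in MMTT at 30 min against -1.67 and -1.62 in SS, a difference of 1.36 ± 0.13 (adjusted p = 2.4e-11). At 1 h 10 min it was -0.78, -0.61 and -0.82 in MMTT against -1.83, -1.86 and -1.82 in SS, at 2 h 30 min -1.03 and -0.37 against -1.01, -0.85 and -0.97, and at 8 h 30 min -0.20, -0.24 and -0.25 against -0.88, -0.93 and -0.97. RPL1B was thus the higher copy in all 49 libraries, by less in MMTT at the early times and at the end, while at 2 h 30 min the strains overlapped (0.24 ± 0.13, adjusted p = 0.18). In SS the ratio at 1 h 10 min was lower than at 0 h by 1.14 on the log2 scale (-1.14 ± 0.13, adjusted p = 4e-09).

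RPL22 moved the other way. Its log2 ratio was 1.68, 2.22 and 1.49 in MMTT at 0 h against 3.36 and 4.17 in SS (-1.97 ± 0.28, adjusted p = 3.3e-07). It was 1.49, 1.25 and 0.89 in MMTT at 8 h 30 min against 1.87, 1.47 and 1.23 in SS (-0.31 ± 0.25, adjusted p = 0.36). The ratio in SS at 0 h rests on the 9 and 8 counts of RPL22B there. At 1 h 10 min, with 1.42, 1.17 and 1.32 in MMTT against 2.56, 2.75 and 2.66 in SS, it was -1.36 ± 0.25 (adjusted p = 6.4e-05). In SS the ratio at 8 h 30 min was below that at 0 h by -2.25 ± 0.28 (adjusted p = 9.6e-09).

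For RPL15 the log2 ratio was 1.99, 2.37 and 1.62 in MMTT at 8 h 30 min against 3.48, 3.67 and 3.09 in SS (-1.43 ± 0.23, adjusted p = 1.1e-05), and RPL15A was lower in MMTT (-1.61 ± 0.22, adjusted p = 1.5e-07). RPL15B did not pass the test between the strains at that time (-0.19, adjusted p = 0.31).

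The copies of RPL11 changed places in MMTT. The log2 ratio was 1.04, 1.16 and 1.07 in MMTT at 0 h against -0.35 and -0.01 in SS (1.27 ± 0.17, adjusted p = 7.7e-08), and -0.25, -0.37 and -0.27 in MMTT at 30 min against -0.75 and -0.83 in SS. The A copy was higher in MMTT at 0 h and the B copy at 30 min, a change of -1.39 ± 0.15 (adjusted p = 3.1e-10). In SS the change at 30 min was -0.61 ± 0.18 (adjusted p = 0.0054, and 0.131 without SS replicate 3 of 0 h).

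For RPL36 the ratio was -1.64, -1.48 and -1.91 in MMTT at 1 h 10 min against -2.43, -2.68 and -2.65 in SS (0.91 ± 0.24, adjusted p = 0.0022). For RPL23 it was -1.22 and -0.75 in MMTT at 2 h 30 min against 0.02, -0.19 and -0.15 in SS (-0.88 ± 0.20, adjusted p = 0.00091), so that the copies were about even in SS and the B copy was higher in MMTT. The mean shifts over the 9 time points were 0.62 ± 0.085 for RPL36 (adjusted p = 3.6e-08), -0.57 ± 0.090 for RPL22 (adjusted p = 5.4e-07), -0.55 ± 0.062 for RPL23 (adjusted p = 3.8e-10) and 0.52 ± 0.053 for RPL11 (adjusted p = 2.2e-11).

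**Figure D5:**
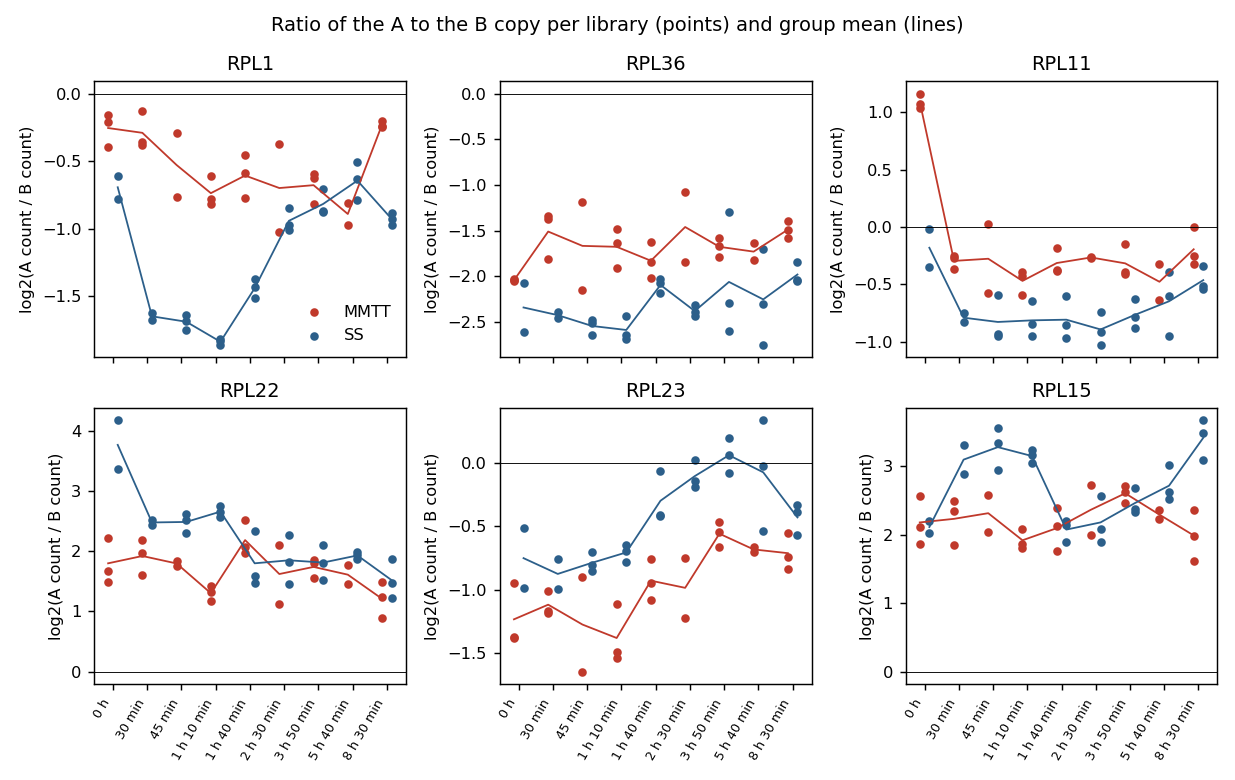
Log2 ratio of A to B counts for RPL1, RPL36, RPL11, RPL22, RPL23 and RPL15 (vertical axes) in each library at the 9 time points (horizontal axis, evenly spaced), for MMTT and SS. RPL1 in MMTT lies above SS from 30 min to 1 h 40 min, RPL11 in MMTT drops between 0 h and 30 min, and RPL22 in SS starts at 3.36 and 4.17.

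Between the strains at 8 h 30 min the A copies had a median log2 fold change of -1.22, with 32 of 33 lower in MMTT, and the B copies -1.14, with 30 of 33 lower. The 50 genes with unique windows only had a median of -1.22 (48 lower) and the 26 with shared windows -1.10 (22 lower).

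Other genes of ribosome making were counted from lists written by role, with the share of all genes tested that were lower in MMTT at that time in brackets. Of 56 small subunit protein genes, 36 were lower in MMTT at 30 min (21.8%), while 49 were at 45 min (12%), 44 were at 1 h 10 min (18%) and 50 were at 8 h 30 min (21.9%), with medians of -0.80, -1.13, -0.97 and -1.13, close to those of the large subunit. All 5 genes of the stalk proteins RPP0, RPP1A, RPP1B, RPP2A and RPP2B, which recruit the translation factors, were lower in MMTT at 8 h 30 min (21.9%, median -1.57). Of 7 dedicated chaperones and escorts of single large subunit proteins (SYO1 for Rpl5 and Rpl11, SQT1 for Rpl10, RRB1 for Rpl3 and ACL4 for Rpl4 among them), 4 were lower in MMTT at 1 h 10 min (18%) and 4 at 8 h 30 min (21.9%), with medians of -0.35 and -0.54. Of 38 assembly and export factors in the table, 27 were lower and 2 higher at 1 h 10 min (18%, median -0.75), 18 lower at 5 h 40 min (11.9%) and 27 lower and 1 higher at 8 h 30 min (21.9%, median -0.79). Of 17 regulators, 13 were lower in MMTT at 30 min (21.8%, median -0.87), 9 at 2 h 30 min (15.8%) and 6 at 8 h 30 min (21.9%, median -0.09). Among the 6 were IFH1, the coactivator (-1.63), CRF1, the corepressor that competes with it (-1.21), and GCR1, an activator shared with the glycolytic genes (-1.01).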

How the data were processed

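From the total RNA of 54 samples of S. cerevisiae diploids the authors isolated mRNA and sequenced it as stranded paired-end libraries. The authors removed ribosomal RNA reads, aligned the rest with STAR and counted reads per gene with featureCounts. The values used are these deposited raw counts, not normalized. Versions, the annotation, the strand setting and the treatment of reads that fit several places are not given in the sources used here. The 5 libraries that the study removed were not used. They were replicate 3 of MMTT at 2 h 30 min and also at 5 h 40 min, replicate 2 of MMTT at 45 min, and replicate 1 of SS at both 0 h and 30 min. No replicates agreed within sampling noise. Samples were grouped by strain and time from the labels.

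Counts were scaled with TMM factors and tested with edgeR 4.0.16 (robust quasi-likelihood, R 4.3.3) on all genes, each strain against its own 0 h (at least 0.5 CPM in at least 3 libraries) and both strains in 1 fit of 18 groups for MMTT against SS, the difference of the changes and the interaction (at least 3 CPM in at least 3 libraries). Benjamini-Hochberg adjustment covered every gene tested, with a threshold of 0.05 (0.001 for the interaction). Standard errors were derived from the F values and are approximate. Copy ratios, log2 of A over B counts with 0.5 added to each, were tested with limma 3.58.1 and adjusted over 61 pairs by name. Leaving out libraries, all 54 libraries, other scalings and filters, DESeq2 1.42.0, fold thresholds and a replicate block were tried. The scripts were tested on simulated data.

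Genes were named by rule: 13 with a set role, the 2 highest and 2 lowest fold changes at 0 h (MMTT against SS), 30 min, 8 h 30 min and 2 h 30 min, the 5 smallest interaction p-values, and the 5 pairs most unequal in level and the 5 with the widest strain shift. RPL13A, RPL15A, RPL21, RPL24, RPL19 and the RPL11 and RPL35 pairs, where named beyond it, were chosen after their values were seen, as were the Rap1-type letters. The values of 1 member of the set, and of its pair, are not reported here. The members, lists and tests were chosen with earlier results of these data known. The same replicate number did not pair samples (mean correlation of deviations 0.04 in MMTT, -0.02 in SS and -0.10 across strains). Sequences and gene positions are from RefSeq, assembly R64, in which 5906 of the 6571 gene IDs were found.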

Additional observations from a re-analysis of the deposited data

Results flagged for a closer look

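The course over time differed between MMTT and SS, by a test of the interaction itself, with the strongest statistics in 5 genes. The F values over 8 coefficients were 15.8 for RPL9B (adjusted p = 6.14e-08), 13.4 for RPL16B (adjusted p = 3.59e-07), 12.46 for RPL17B (adjusted p = 7.36e-07), 12.29 for RPL22A (adjusted p = 8.5e-07) and 12.24 for RPL5 (adjusted p = 8.89e-07).

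At single times the change from 0 h also differed between the strains, by a test of the difference itself, in 3 genes named by rule. For RPL22B the change in MMTT minus that in SS on the log2 scale was -2.58 at 30 min, -1.66 by 2 h 30 min and -3.42 by 8 h 30 min, all resting on 9 and 8 counts in SS at 0 h, and the value at 2 h 30 min had an adjusted p of 0.147 without SS replicate 2 of 0 h. For RPL7A it was -1.87 at 30 min and for RPL7B -1.96 at 8 h 30 min.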

How the results depend on the processing

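Summed over the time points, the calls of the 76 genes were 15 lower and 322 higher in MMTT against 0 h, 8 and 499 in SS against 0 h, 270 and 9 in MMTT against SS, and 167 lower for the difference of changes. Leaving out 1 library at a time gave 8 to 19 and 235 to 372 in MMTT, 3 to 8 and 425 to 510 in SS, 247 to 284 and 7 to 15 for MMTT against SS, 104 to 190 lower and 0 to 0 higher for the difference, and 32 to 49 genes for the interaction. It gave 21 to 27 pairs for the mean copy ratio, 71 to 98 calls at single times, 134 to 155 in MMTT against its own 0 h, and 66 to 147 in SS, the 66 being without SS replicate 3 of 0 h. With a log2 fold change over 1 the calls were 5 lower and 141 higher in MMTT, 0 lower in SS, and 158 lower and 5 higher for MMTT against SS. With one over 2 they were 0 and 2 in MMTT, 0 and 72 in SS, 3 and 1 for MMTT against SS, and 13 lower for the difference. Without scaling factors 17 calls were higher for MMTT against SS. The set of members with unique windows, added after seeing the data, gave 6 lower in MMTT and 2 lower in SS because it holds fewer genes. With all 54 libraries 19 pairs differed in the mean copy ratio. One value turned round: RPL29 in MMTT at 45 min was 1.13 against 0 h, -0.18 without MMTT replicate 1 of 45 min and 1.84 without replicate 3.

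With the replicate number as a block the counts were 14 and 321 in MMTT, 8 and 488 in SS, 275 and 9 for MMTT against SS, 171 for the difference and 40 for the interaction, and 682 of 690 tests of named genes kept their direction and their side of the threshold. A wider set of pairs found by protein alignment, also added after seeing the data, gave 24 of 33 pairs (72.7%) against 67.8% of 425 added pairs. The median absolute shift of the mean log2 ratio between strains was smaller in the 33 pairs, 0.18 against 0.34 in the added pairs. Depth limits mainly RPL22B, whose lowest count was 8.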
